A study of Mus musculus with 5 samples.

Results

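Oxidative phosphorylation is carried out by 5 protein complexes of the inner mitochondrial membrane, and nearly all of their subunits are encoded in the nucleus. The set described here comprised every gene whose symbol starts with Nduf, Uqcr or Atp5, or with Cox followed by a digit from 4 to 8, which gave 86 of the 16498 genes in the table. By role these were 7 core subunits, 29 accessory subunits and 8 assembly factors of complex I (NADH dehydrogenase), 8 subunits of complex III (cytochrome bc1), 12 subunits of complex IV (cytochrome c oxidase) with 6 tissue or condition isoforms of complex IV subunits, 15 subunits of ATP synthase and 1 related factor. The symbol rule left out complex II, cytochrome c and complex IV assembly genes, which were followed as separate lists, and the 13 mitochondrially encoded subunits (mt- genes) were placed beside the set.

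Complexes I, III and IV pass electrons from NADH to oxygen and pump protons across the inner membrane, and ATP synthase uses the returning protons to make ATP. Complexes I, III, IV and ATP synthase are assembled from nuclear and mitochondrial gene products together, so that each cell type sets both supplies. Contractile smooth muscle draws on mitochondrial ATP, whereas macrophages are known to shift between respiration and glycolysis with their activation state.

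The data were single-cell 3' RNA sequencing libraries of live, DAPI-sorted aortic cells from the aortic root to the curvature of mice kept for 28 weeks on a normal chow diet. All mice lacked Apoe, the apolipoprotein whose loss leads to atherosclerosis. There were 2 libraries of Apoe-/- mice (genotype label Oasl1+/+Apoe-/-) and 3 libraries labelled Oasl1-/-Apoe-/-, in which the promoter and exon 2 of Oasl1, an interferon-induced gene, were deleted in all cells. The study pooled 6 mice, without saying whether per library or per group, so p-values measure the spread between these libraries, which may be technical. Oasl1 itself gave 27 and 16 UMIs (molecules counted once each by a unique identifier) in the Apoe-/- libraries and 299, 257 and 315 in those labelled Oasl1-/-Apoe-/-. The tags come from the 3' end, outside the deleted part, so they do not show the deletion itself. Their direction goes against the label, since the deletion includes the promoter. This conflict was not resolved here, and the word labelled is kept throughout.

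The 5 libraries held 18260 cells and 16959976 to 19813039 UMIs each, with median depths of 4495 to 5187 UMIs per cell. Cells were gated by marker genes, and 88.1% of them fell into a type. Smooth muscle cells were 67.3% and 68.7% of the Apoe-/- libraries against 47.7%, 48.0% and 47.7% of the Oasl1-/-Apoe-/- labelled libraries, and macrophages 9.66% and 8.88% against 20.98%, 20.4% and 21.6%. Defining markers were present in each of the 4 main gates, with no marker of its own list at 0. The gates were drawn with these same lists, so this is no independent check of the cell types. The members took 2.14% and 2.22% of all UMIs in the Apoe-/- libraries and 2.13%, 2.20% and 2.21% in the others, so that the groups overlapped.

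Promoters of 4 members are shown because Atp5k, Ndufa3 and Ndufa6 were among the members that rose in smooth muscle cells and each held a different searched motif, and because Ndufa4 moved in opposite directions in smooth muscle cells and macrophages. Each runs from 250 bases before to 50 bases after the annotated start (RefSeq, GRCm38.p6), 5' to 3' on the gene's strand. Capitals mark matches to motifs common in promoters of mitochondrial genes, namely CCGGAAG (the core bound by ETS factors such as GABP), AAGATGGC (bound by YY1) and the NRF1 motif, searched on both strands. Atp5k (ATP synthase subunit e) lies on the minus strand at chr5:108434350-108434649, Ndufa3 on the plus strand at chr7:3617123-3617422, Ndufa6 on the minus strand at chr15:82354242-82354541 and Ndufa4 on the minus strand at chr6:11907401-11907700.
Atp5k: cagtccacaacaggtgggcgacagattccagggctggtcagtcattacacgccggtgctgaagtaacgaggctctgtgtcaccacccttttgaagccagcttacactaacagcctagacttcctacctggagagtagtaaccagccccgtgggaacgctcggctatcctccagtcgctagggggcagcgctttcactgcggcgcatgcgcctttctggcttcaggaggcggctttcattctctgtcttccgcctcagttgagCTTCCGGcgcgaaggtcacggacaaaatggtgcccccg
Ndufa3: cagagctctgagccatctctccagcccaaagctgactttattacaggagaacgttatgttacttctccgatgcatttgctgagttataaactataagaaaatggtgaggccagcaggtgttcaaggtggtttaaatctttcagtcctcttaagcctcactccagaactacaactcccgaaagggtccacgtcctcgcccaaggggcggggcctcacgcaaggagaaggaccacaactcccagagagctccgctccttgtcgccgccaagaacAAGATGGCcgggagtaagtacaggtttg
Ndufa6: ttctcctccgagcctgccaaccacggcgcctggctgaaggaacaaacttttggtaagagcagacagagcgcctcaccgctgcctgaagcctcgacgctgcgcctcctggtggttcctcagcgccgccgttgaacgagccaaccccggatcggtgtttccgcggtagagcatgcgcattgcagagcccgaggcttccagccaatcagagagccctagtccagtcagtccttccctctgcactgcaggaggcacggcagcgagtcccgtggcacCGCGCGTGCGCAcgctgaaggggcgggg
Ndufa4: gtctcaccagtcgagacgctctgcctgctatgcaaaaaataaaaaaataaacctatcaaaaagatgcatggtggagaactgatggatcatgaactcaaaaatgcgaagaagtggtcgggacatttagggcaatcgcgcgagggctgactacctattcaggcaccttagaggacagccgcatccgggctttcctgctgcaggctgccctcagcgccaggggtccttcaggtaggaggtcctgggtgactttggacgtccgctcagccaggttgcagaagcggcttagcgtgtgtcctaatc

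The first carried CCGGAAG on the opposite strand, the second AAGATGGC and the third the NRF1 motif, while no searched motif was in the Ndufa4 window. Promoters were matched for 72 of the 86 members. At least 1 of the 3 motifs was in 40.3% of them, against 12.6% of the promoters of 27025 genes. By motif, NRF1 was in 6.94% of member promoters against 1.32% of all, CCGGAAG in 20.8% against 9.17%, and AAGATGGC in 13.9% against 2.88%. No member promoter had overlapping motifs. A match is a description of the letters and not a binding site.

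Levels are given as CP10K, the UMIs of a gene per 10000 UMIs of a cell, averaged over the cells of a library. Each molecule is tagged once at its 3' end, so levels were not scaled by length. Whether capture differs between genes was not checked. Differences between the groups are log2 (Oasl1-/-Apoe-/- labelled over Apoe-/-) with 0.05 CP10K added, and a gene was called past the threshold at an adjusted p under 0.05 (limma, Benjamini-Hochberg over all genes tested). Folds and log2 differences between cell types also have 0.05 CP10K added, so for genes of low level they understate the ratio of the levels.

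Smooth muscle cells had the highest summed level of the members. Their sums were 223 and 230 CP10K in the Apoe-/- libraries and 240, 247 and 250 in the Oasl1-/-Apoe-/- labelled libraries. Endothelial cells had 201 and 204 against 203, 208 and 214, and macrophages 196 and 206 against 183, 190 and 189. In fibroblasts the sums were 178 and 200 against 179, 182 and 184. The labelled libraries were thus all higher in smooth muscle cells and all lower in macrophages, and the groups overlapped in endothelial cells and fibroblasts. Within each of the 3 macrophage clusters with enough cells, described below, the sums of the groups overlapped. The sums were not tested.

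**Figure D1:**
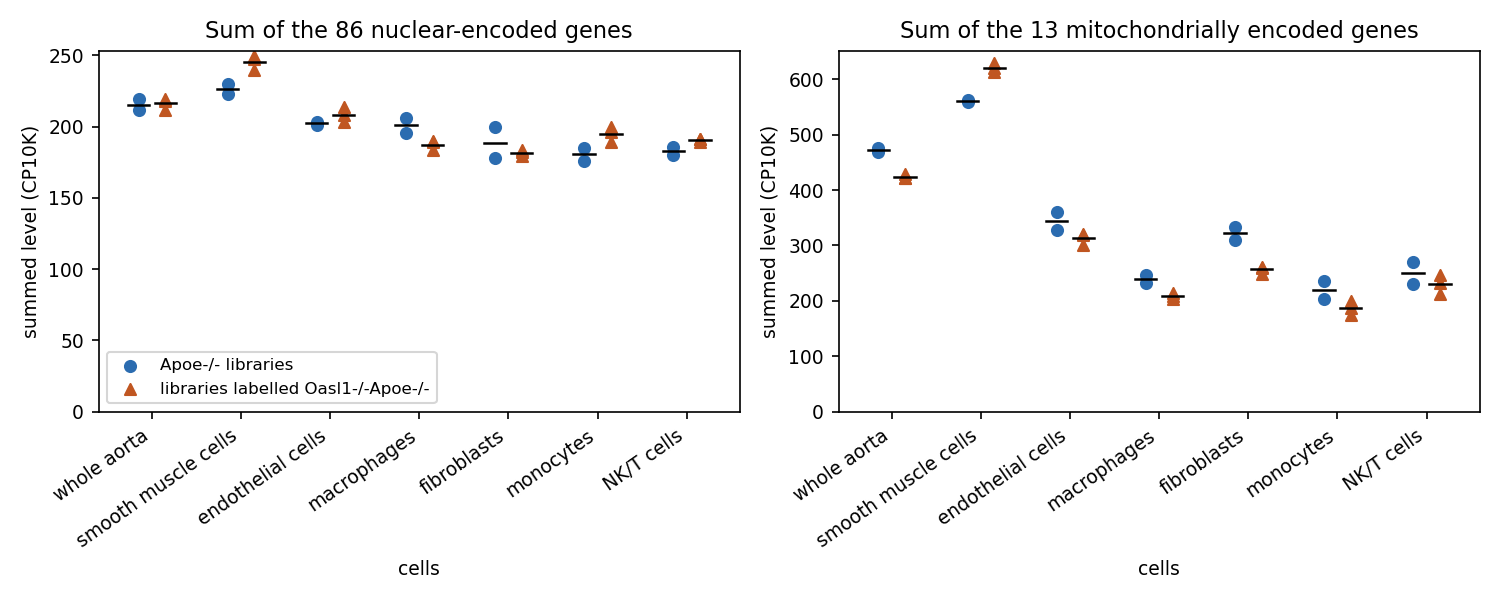
Summed level (CP10K, linear axis from 0) of the 86 nuclear-encoded members (left) and the 13 mt- genes (right) in whole aorta and 6 gated cell types; circles are the 2 Apoe-/- libraries, triangles the 3 libraries labelled Oasl1-/-Apoe-/-, and bars group means. In smooth muscle cells both sums were higher in the labelled libraries and in macrophages both were lower.

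Across cell types, more members were lower than higher in macrophages, endothelial cells and fibroblasts relative to smooth muscle cells. In macrophages 55 of 79 tested members were lower and 12 higher, where 52% and 28.9% of all genes tested passed in these directions. The median log2 difference in level was -0.33 for the members and -0.23 for all genes. In endothelial cells 50 of 80 members were lower and 7 higher, against 25.2% and 34.9% of all genes, with medians of -0.26 and 0.09. In fibroblasts 41 of 82 were lower and 3 higher, against 18.7% and 15.7% of all genes, with medians of -0.35 and -0.08. The endothelial and fibroblast shares of lower members were above the background, and the macrophage share of 55 in 79 stood beside a background over 50%.

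Members above their smooth muscle level came from several complexes. Cox5a, a subunit that binds the matrix side of complex IV, was 2.01-fold higher in macrophages than in smooth muscle cells, at 6.10 against 3.06 CP10K (limma, adjusted p = 6.4e-16). Cox6b1, a subunit on the intermembrane side, was 1.54-fold higher in macrophages and 1.28-fold higher in endothelial cells. Ndufc2, Ndufb8 (both accessory to complex I) and Atp5f1 (a stalk subunit of ATP synthase) were 1.38-, 1.30- and 1.31-fold higher in macrophages. Endothelial cells had their largest excess in Cox7a2l, a factor that joins complexes III and IV, at 8.33 against 4.39 CP10K, a 1.89-fold difference (adjusted p = 2.8e-19). Ndufb4 was 1.51-fold higher there and 1.43-fold higher in fibroblasts, while Atp5g2 and Uqcrh were 1.18- and 1.15-fold higher in endothelial cells.

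Other members were far under their smooth muscle level. Ndufa11, an accessory subunit of complex I, was at 0.338 times its smooth muscle level in macrophages and 0.464 times in endothelial cells. Ndufa4, first described in complex I and now placed in complex IV, was at 0.416 times in macrophages, 2.75 against 6.94 CP10K (adjusted p = 1.4e-17). In endothelial cells it was at 6.72 CP10K, a log2 difference of -0.02 (SE 0.04, adjusted p = 0.63). Ndufb9 and Ndufb10 were at 0.481 and 0.538 times in macrophages and 0.587 and 0.583 times in endothelial cells, and Cox6c at 0.527 times in macrophages. Ndufs1, the largest core subunit of complex I, was at 0.613 times in endothelial cells and 0.577 times in fibroblasts, and the assembly factor Ndufaf7 at 0.603 times in endothelial cells. Fibroblasts were lowest in Ndufs6 (0.570 times), Ndufs1, Atp5g3 (0.579 times), Atp5g2 (0.60 times) and Uqcrc2, a core subunit of complex III (0.612 times).

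**Figure D2:**
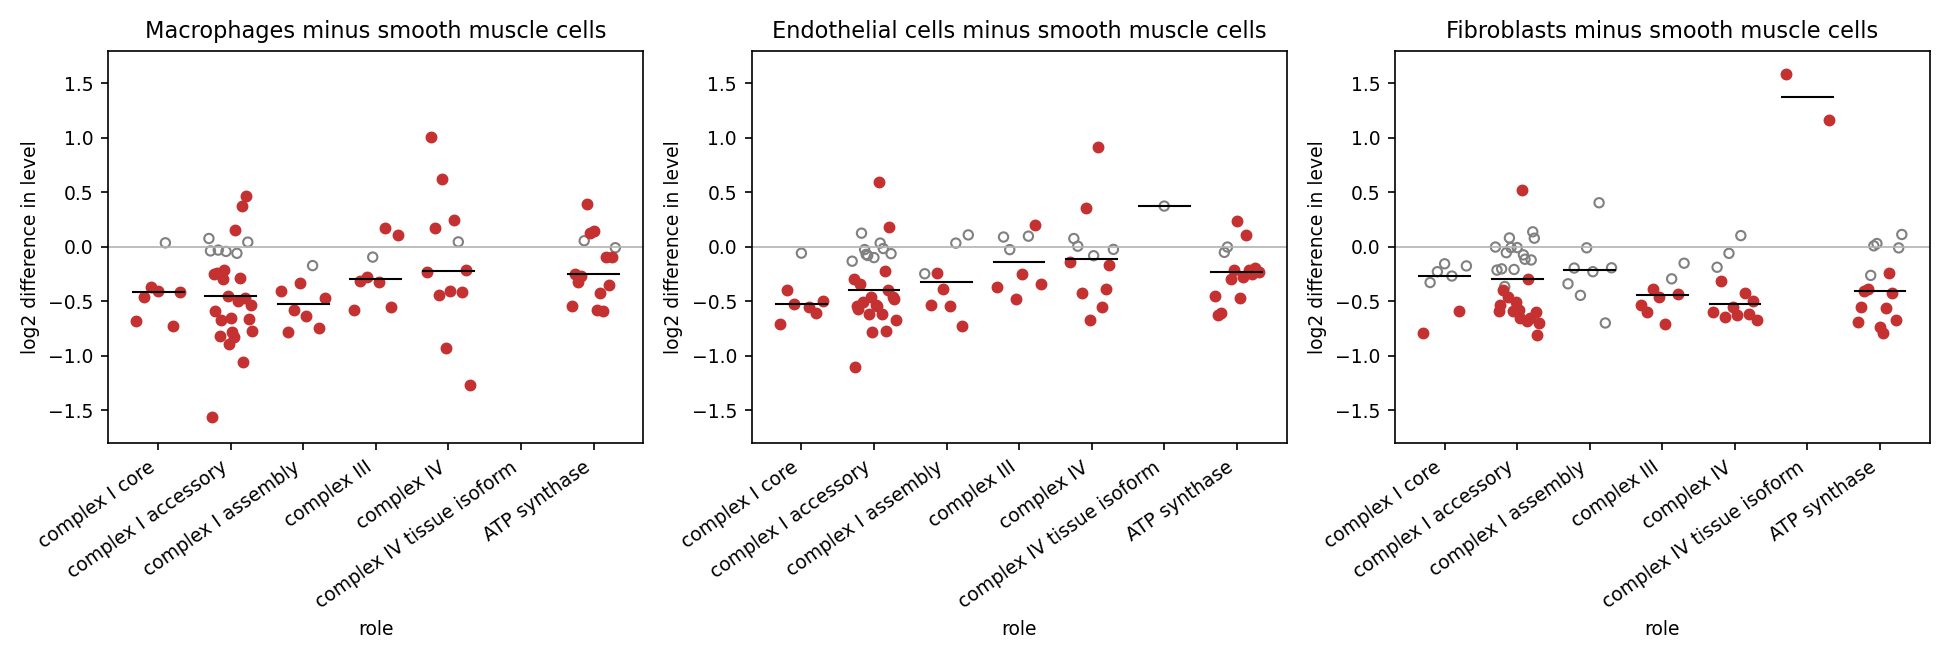
Log2 difference in level of each tested member in macrophages, endothelial cells and fibroblasts against smooth muscle cells, by role; filled points passed the threshold, and bars are medians. The ATP synthase-related factor is not drawn. Most filled points lie under 0 in all 3 panels, with Cox5a (1.005) highest in macrophages, Cox7a2l (0.92) in endothelial cells and Cox4i2 (1.58) in fibroblasts.

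Fibroblasts had higher levels of 2 complex IV isoforms. Cox4i2, the isoform of the Cox4 subunit known from lung and low oxygen, was 3.0-fold higher in fibroblasts than in smooth muscle cells (adjusted p = 3.8e-06), and Cox6b2, known from testis, was 2.25-fold higher (adjusted p = 0.0031). Ndufa4l2, a paralog of Ndufa4 known as a hypoxia-induced gene, made up 27.2% and 16.4% of the summed Ndufa4 and Ndufa4l2 in fibroblasts of the Apoe-/- libraries, and 19.9%, 17.4% and 27.9% in the labelled ones. In smooth muscle cells its share was at most 0.136% in any library, and in endothelial cells it was listed at 0 in all 5. Cox4i2 made up 4.03% to 7.51% of the Cox4 pair in fibroblasts and 0.934% to 1.26% in smooth muscle cells. The muscle isoforms Cox7a1 and Cox8b stayed low: Cox7a1 was at most 1.34% of its pair in these 4 cell types, and Cox8b at most 0.376%.

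In fibroblasts the groups' isoform shares overlapped for Cox4i2 and Ndufa4l2 but not for Cox6b2, which made up 5.77% and 3.21% of its pair against 6.87%, 7.95% and 6.16% (exact p = 0.10). In smooth muscle cells 4 pairs could be tested, and their two-sided exact permutation p ranged from 0.20 to 0.60 (adjusted over the 4 pairs, 0.60), where 2 against 3 libraries can give no p under 0.10. In macrophages Cox6a2, the heart and skeletal muscle isoform, made up 1.11% and 0.972% of the Cox6a pair against 2.90%, 1.91% and 1.67%, so the labelled libraries were all higher (exact p = 0.10, the smallest possible). Its mean level was 0.0479 against 0.0921 CP10K, and the log2 difference of 0.52 did not pass (adjusted p by limma = 0.088). The Apoe-/- mean lay under 0.05 CP10K, the lowest mean level tested and the amount added before taking logs. Cox6a2 thus entered the test only through the labelled libraries, and the size of its difference depends on the added amount. The groups did not overlap for 2 more macrophage pairs, each at an exact p of 0.10 before adjustment. Cox7a1, the muscle isoform of its pair, was higher, with 0.571% and 0.648% against 0.823%, 0.724% and 0.83%. Cox6b2, the testis isoform, was lower, with 0.641% and 0.83% against 0.273%, 0.489% and 0.501%. An exact p of 0.10 is reached only where the groups do not overlap, so it adds little to that. By level, 25.6% of all genes tested in macrophages had every labelled library higher and 18.4% every one lower. In fibroblasts these shares were 15.3% and 13.1%. No such share was computed for ratios, and these non-overlaps are not read as a result about the isoforms.

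In smooth muscle cells, subunits of complexes I, III and IV and of ATP synthase rose in the Oasl1-/-Apoe-/- labelled libraries. Of 82 members tested, 22 were higher and 0 lower, while 6.09% of all genes tested were higher and 2.76% lower. The median log2 difference was 0.07 for the members and 0.01 for all genes. By role the higher members were 8 of 29 accessory subunits of complex I, 4 of 8 in complex III, 5 of 12 in complex IV and 5 of 15 in ATP synthase, and 0 of 7 core subunits and 0 of 8 assembly factors of complex I. At an unadjusted p under 0.05 there were 31 members in either direction, and limma-voom on summed UMIs called 20 higher and 0 lower. Here and below, counts at an unadjusted p are given without the share of all genes. The same holds for counts with a library, filter or weighting changed. Neither is read as a result about the members.

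Atp5k, subunit e at the dimer interface of ATP synthase, was at 1.14 and 1.39 CP10K in the Apoe-/- libraries and at 1.57, 1.84 and 1.87 in the labelled ones. Every labelled library lay above both Apoe-/- libraries, with a log2 difference of 0.46 (SE 0.08, adjusted p = 0.0011). Ndufa3, an accessory subunit of complex I, was at 0.782 and 0.851 against 1.01, 1.27 and 1.15 CP10K. Its groups did not overlap either, and it rose by 0.46 (SE 0.08, adjusted p = 0.00085). Uqcr10, a small subunit of complex III, was at 2.24 and 2.57 against 2.91, 3.08 and 3.32 CP10K, a difference of 0.36 (SE 0.06, adjusted p = 0.0013). Uqcrb, which lies near the ubiquinone site of complex III, was at 4.20 and 4.30 against 5.09, 5.38 and 5.30 CP10K. Here the gap between the groups was wider than the spread within either, with a difference of 0.30 (SE 0.05, adjusted p = 0.00036). Ndufa1, needed for complex I assembly, was at 1.10 and 1.33 against 1.38, 1.55 and 1.56 CP10K, a difference of 0.29 (SE 0.07, adjusted p = 0.018).

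More abundant members rose as well. Ndufa4 was at 6.17 and 6.49 against 7.05, 7.52 and 7.47 CP10K, with no overlap and a log2 difference of 0.21 (SE 0.05, adjusted p = 0.0086). Atp5l, subunit g and the most abundant ATP synthase member in whole aorta, was at 5.90 and 6.72 against 7.14, 7.77 and 7.77 CP10K, a difference of 0.26 (SE 0.06, adjusted p = 0.0069). Cox6b1 rose by 0.27, Ndufa13 by 0.25 and Uqcrh by 0.17. The other higher members were Ndufa6, Ndufa2, Ndufb2, Ndufa7, Ndufb3, Cox7c, Cox6c, Cox7a2, Uqcr11, Atp5e, Atp5j2 and Atp5c1, with differences of 0.18 to 0.28. Atp5j2 was the one of the 22 whose libraries overlapped. Cox4i1, the most abundant complex IV member, was at 15.2 CP10K over all libraries with a difference of 0.11 that did not pass.

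**Figure D3:**
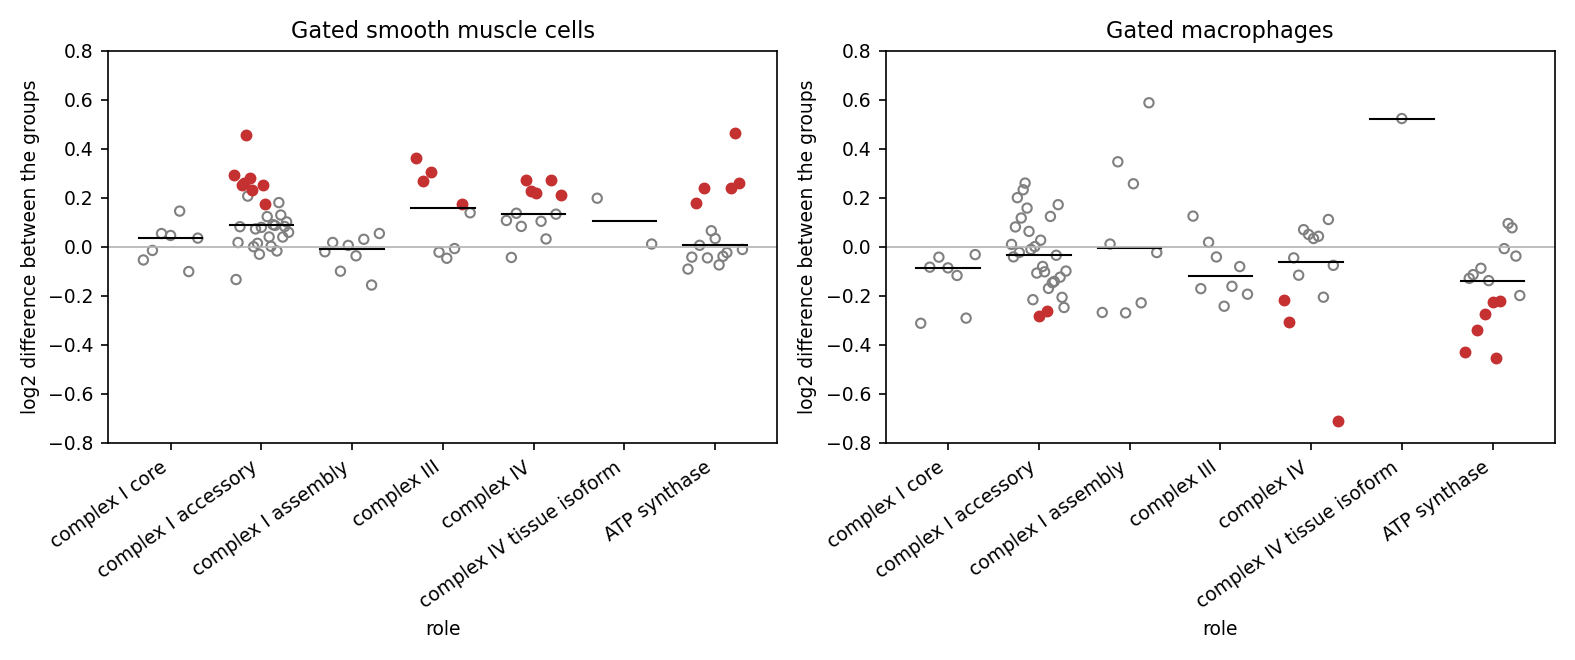
Log2 difference (Oasl1-/-Apoe-/- labelled minus Apoe-/-) of each tested member in smooth muscle cells (left) and macrophages (right), by role; filled points passed the threshold (adjusted p under 0.05), and bars are medians. The ATP synthase-related factor is not drawn. All 22 filled points on the left lie above 0 and all 11 on the right under 0, with Ndufa4 at -0.71 the lowest.

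Over all tested members, 34 of 82 had every labelled library above both Apoe-/- libraries in smooth muscle cells and 9 had every one under, while 22.6% and 16% of all genes tested did so. The 22 called members were also followed in the 6 clusters that held enough gated smooth muscle cells, of which 5 had the markers of that type and 1, with Lum, Prg4 and Timp1 as leading genes, was left unnamed. In the 5 clusters group means were higher in the labelled libraries for 22, 22, 22, 22 and 20 of the 22, and every labelled library was higher for 12 to 22 of them. In the unnamed cluster the means were higher for 21 and every labelled library for 7. The clusters hold the same cells in which the 22 were called. These counts were therefore partly fixed in advance and are no independent support. Taking all 6 clusters with the same weight in every library gave 24 higher members, which included all 22. The count fell to 5 without the third Oasl1-/-Apoe-/- labelled library, to 12 without the second and to 5 with no filter on low values, and it was 15 to 24 without any other library.

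The difference in smooth muscle cells varied with transcript length. Among 81 tested members with an annotated length, Spearman's rho between the median length of the coding transcripts and the log2 difference was -0.63, a description across genes that share libraries. Over 8875 genes it was -0.06. Of members under 700 bases 17 of 35 were higher, and of those of 700 bases or more 5 of 46. The median difference was 0.17 for members under 700 bases, 0.06 from 700 to 1500 bases and -0.03 above. Other genes under 700 bases that are neither members nor ribosomal protein genes, 207 in all, had a median of 0.07, and 89 ribosomal protein genes a median of -0.05. Among members, rho was also under 0 in whole aorta (-0.44), macrophages (-0.27) and endothelial cells (-0.18). Over all genes with a length it was -0.17, 0.06 and -0.03 there. The part of transcript length in these results was not tested.

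**Figure D4:**
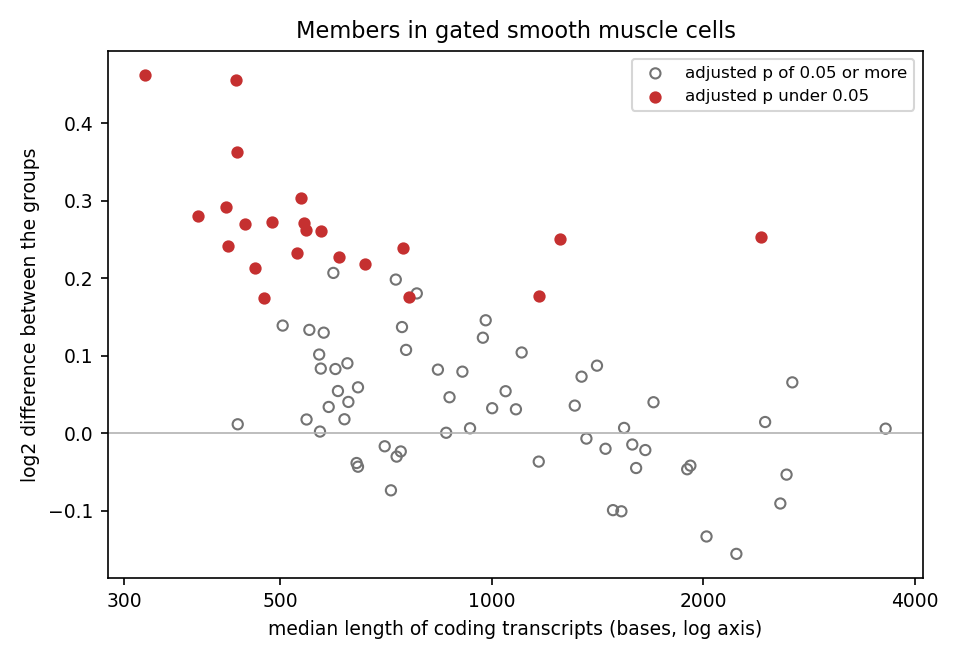
Log2 difference (Oasl1-/-Apoe-/- labelled minus Apoe-/-) in smooth muscle cells against the median length of each member's coding transcripts (bases, log axis); filled points passed the threshold. Members under 700 bases hold 17 of the 22 filled points, and the points fall with length (Spearman's rho -0.63 over 81 members).

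Other features of the smooth muscle gate moved with the groups. The sum of its 8 contractile markers was 628 to 663 CP10K in the Apoe-/- libraries and 571 to 582 in the labelled ones, with none of the 8 at 0. The 7 macrophage markers summed to 0.395 to 0.403 against 0.753 to 0.958 CP10K, the 7 fibroblast markers to 1.38 to 1.75 against 3.60 to 3.96, and the 5 erythroid markers to 1.54 to 1.60 against 0.427 to 0.53. Median depths were 4948 and 4662 against 5009, 5136 and 5254 UMIs per cell. The part of these differences in the members' rise was not tested.

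In smooth muscle cells 5 of the 13 mitochondrially encoded genes rose and 1 fell. Their sum was 564 and 560 CP10K in the Apoe-/- libraries and 629, 614 and 620 in the labelled ones. The genes mt-Nd4l, mt-Cytb, mt-Co1, mt-Co3 and mt-Atp6 were higher and mt-Nd2 was lower. mt-Cytb, the mitochondrial subunit of complex III, was at 61.5 and 58.8 against 72.6, 69.9 and 71.1 CP10K, a log2 difference of 0.24 (SE 0.04, adjusted p = 0.0011). mt-Co1, the catalytic subunit of complex IV, rose by 0.23 and mt-Atp6 of ATP synthase by 0.17, and mt-Nd1 of complex I had a difference of 0.14 that did not pass (adjusted p = 0.051). mt-Nd2 fell from 24.3 and 25.5 to 22.2, 20.985 and 21.4 CP10K. In the other lists Cox17, the glycolytic enzyme Eno1 and the uncoupling protein Ucp2 were higher and Gapdh lower, and no gene of complex II, the tricarboxylic acid cycle or mitochondrial biogenesis passed.

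In macrophages 11 members fell, and 6 of them were ATP synthase subunits. Of 80 members tested, 11 were lower and 0 higher, while 6.58% of all genes tested were lower and 9.7% higher. The median log2 difference was -0.08 for the members and 0.04 for all genes. The lower members were 6 of 15 in ATP synthase, 3 of 12 in complex IV and 2 of 29 accessory subunits of complex I. At an unadjusted p under 0.05 there were 22 members in either direction, and limma-voom on summed UMIs called 15 lower and 0 higher. On the mean of the deposited log values, the split was 8 lower and 4 higher.

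Ndufa4 was at 3.46 and 3.74 CP10K in macrophages of the Apoe-/- libraries and at 2.07, 2.29 and 2.18 in those labelled Oasl1-/-Apoe-/-. It was lower in every labelled library, by 0.71 on the log2 scale (SE 0.08, adjusted p = 1.8e-06), and it was the one member past the threshold in opposite directions in smooth muscle cells and macrophages. Atp5g3, which encodes the c subunit of the ATP synthase rotor, was at 1.90 and 1.83 against 1.28, 1.38 and 1.39 CP10K, a difference of -0.45 (SE 0.09, adjusted p = 0.00089). Atp5a1, the alpha subunit of the catalytic head, was at 3.57 and 2.89 against 2.49, 2.34 and 2.32 CP10K. Its Apoe-/- libraries were spread widely but both lay above the labelled ones, with a difference of -0.43 (SE 0.09, adjusted p = 0.0017). Atp5d, the delta subunit of the central stalk, was at 3.85 and 3.72 against 3.02, 2.95 and 2.96 CP10K, a difference of -0.34 (SE 0.07, adjusted p = 0.0018). Cox5a was at 6.83 and 6.97 against 5.65, 5.70 and 5.37 CP10K, a difference of -0.31 (SE 0.06, adjusted p = 0.0017).

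Cox4i1, the most abundant member, was at 13.5 and 14.3 CP10K against 11.96, 12.1 and 11.8, with no overlap and a log2 difference of -0.22 (SE 0.06, adjusted p = 0.0098). The other lower members were Ndufb11 and Ndufb5 of complex I and Atp5f1, Atp5g2 and Atp5h of ATP synthase, with differences of -0.22 to -0.28. Every labelled library was lower in 32 of 80 members and higher in 8, while 18.4% and 25.6% of all genes tested did so.

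**Figure D5:**
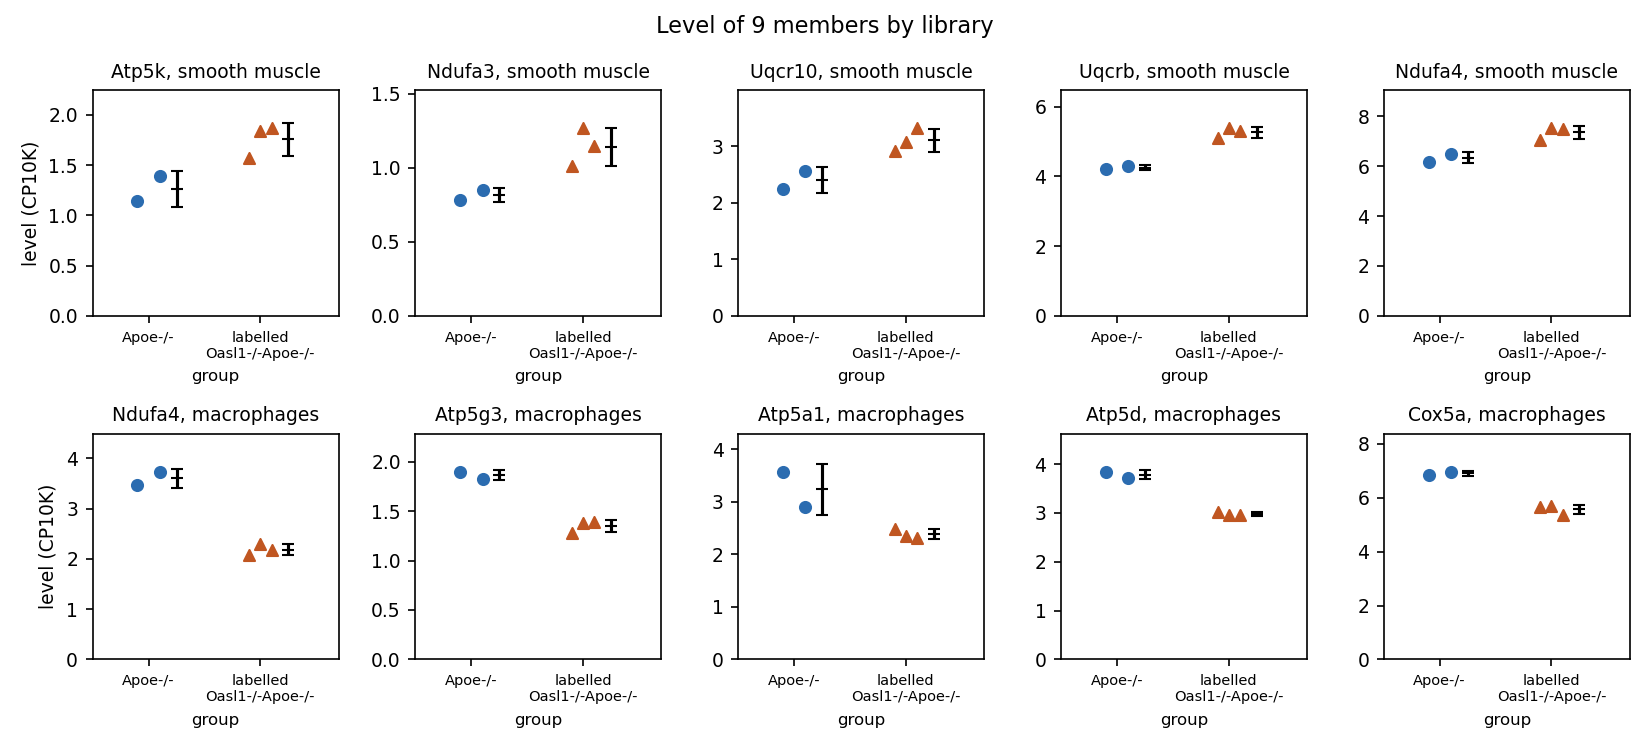
Level (CP10K, linear axes from 0) of 5 members in smooth muscle cells (top) and 5 in macrophages (bottom); circles are Apoe-/- libraries, triangles libraries labelled Oasl1-/-Apoe-/-, and the bars beside them mean and SD (n = 2 and n = 3). Ndufa4 is drawn in both rows, higher in the labelled libraries in smooth muscle cells and lower in macrophages.

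Gated macrophages fell into several clusters, in unequal shares. The one with Gpnmb, Fabp5 and Lpl as leading genes held 40.9% and 43.9% of the gate in the Apoe-/- libraries and 21.7%, 21.7% and 23.4% in the labelled ones. Its member sums were 201 and 217 against 200, 205 and 212 CP10K. They lay above those of the cluster with Fcrls, Cd72 and Adgre1 as leading genes (171 and 175 against 165, 172 and 170). The sums of the groups overlapped in both clusters. A cluster led by Cd5l, Atp6v0d2 and Ctsl held 19.3% and 21.8% against 14.8%, 12.5% and 10.2% of the gate. Its member sums, 228 and 221 against 221, 236 and 237 CP10K, overlapped between the groups, and its median depth per library was 1071 to 1230 UMIs per cell. Within the 3 clusters with enough cells, all 11 members had a lower mean in the labelled libraries, and every labelled library was lower for 7, 7 and 6 of them. The 11 had been called in a gate that includes these cells, so this was partly fixed in advance and is no independent support. With the same weight for each cluster in every library, Ndufa4 (-0.39), Atp5a1 (-0.39) and Atp5d (-0.30) were lower and the other 8 did not pass; those clusters held 88.3% to 91.2% of gated macrophages in the Apoe-/- libraries and 66.2% to 69.8% in the labelled ones.

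Smooth muscle RNA was also measured in the macrophage gate. The 8 smooth muscle markers summed to 4.31 and 4.76 CP10K in the Apoe-/- libraries and 2.27, 2.08 and 2.05 in the labelled ones, which is 0.649% and 0.758% against 0.36% to 0.389% of the smooth muscle gate. That share of the smooth muscle level of Ndufa4 amounts to 0.0401 and 0.0492 against 0.0269 to 0.0274 CP10K, beside a group difference in means from 3.60 to 2.18. Markers of other cell types moved as well, some up and some down. The 4 monocyte markers summed to 0.304 to 0.357 CP10K in the Apoe-/- libraries and 0.675 to 0.748 in the labelled ones, the 7 dendritic cell markers to 0.0955 to 0.150 against 0.223 to 0.354, and the 7 fibroblast markers to 0.166 to 0.188 against 0.303 to 0.512. The 5 erythroid markers were lower in the labelled libraries (1.69 to 2.07 against 0.473 to 0.712 CP10K). The gate's own 7 macrophage markers summed to 202 to 224 against 241 to 248 CP10K. The part of these differences in the members' fall was not tested. Leaving out single libraries changed the macrophage count: it was 5 lower without the third labelled library and 7 without the first or the second, 16 lower and 1 higher without the first Apoe-/- library, and 13 lower and 7 higher without the second.

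In macrophages 7 of the 12 mt- genes tested were lower and 0 higher. The mt- sum was 232 and 247 against 208, 214 and 204 CP10K. mt-Nd1 was at 25.2 and 25.5 against 20.5, 21.4 and 20.2 CP10K, a log2 difference of -0.29 (SE 0.05, adjusted p = 0.00036), and mt-Cytb had -0.20. mt-Co1 and mt-Atp6 had -0.04 and -0.06, and neither passed. In complex II, which feeds electrons from succinate, Sdha, Sdhb and the assembly factors Sdhaf1 and Sdhaf3 were lower and Sdhaf2 higher among 8 genes. Of 9 carriers, the phosphate carrier Slc25a3 and the adenine nucleotide carriers Slc25a4 and Slc25a5 were lower. Cytochrome c (Cycs) and the complex III assembly factor Uqcc3 were higher and Cyc1 lower among 7 tested, and the copper chaperone Cox17 was higher among 15 tested assembly genes of complex IV. None of 11 tricarboxylic acid cycle genes and none of 7 tested genes of mitochondrial biogenesis passed, and in glycolysis Pfkp and Eno1 were higher and Gapdh and Pgam1 lower among 14.

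The difference between the groups was then compared directly between macrophages and smooth muscle cells. Of 79 members tested in both, 25 had a lower difference in macrophages and 1 (the assembly factor Ndufaf7) a higher one, while 6.69% of all genes tested were lower and 5.24% higher. The median was -0.20 for the members and 0.01 for all genes. The 25 held 10 of the 22 members higher in smooth muscle cells and 10 of the 11 lower in macrophages, with Ndufa4 in both, and 6 that passed in neither (Cox6a1, Cox7b, Cox8a, Ndufs5, Ndufs6 and Uqcrq). For Ndufa4 the contrast was -0.92 (SE 0.06, adjusted p = 8.9e-09). By role the 25 were 9 of 15 in ATP synthase, 7 of 12 in complex IV, 4 of 8 in complex III and 5 of 29 accessory subunits of complex I, with 0 of 7 core subunits. With the same cluster weights 5 remained in the count (Ndufa4, Atp5a1, Atp5d, Cox4i1 and Uqcrh), with no filter on low values it was 15, and without the second Apoe-/- library 15 were lower and 1 higher.

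In endothelial cells no member passed. Of 80 tested, 0 were higher and 0 lower, where 2.28% and 0.922% of all genes passed, 7 members had an unadjusted p under 0.05, and limma-voom called 0. Ndufa4 was at 6.59 and 6.64 against 6.84, 6.78 and 6.77 CP10K, a log2 difference of 0.04. Without the second Apoe-/- or the first labelled library 1 member was higher. Of the mt- genes, mt-Nd2 and mt-Nd4 were lower. Against smooth muscle cells the group difference passed for 0 of 80 members in either direction, where 0.937% and 1.01% of all genes did, with 9 members at an unadjusted p under 0.05 and 0 by limma-voom.

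Fibroblasts gave the same counts with fewer cells, 45 to 106 per library. Of 83 members 0 were higher and 0 lower, where 0.98% and 0.202% of all genes passed, with 4 members at an unadjusted p under 0.05 and 0 by limma-voom. Against smooth muscle cells it was 0 of 82 in either direction, where 0.156% and 0.276% of all genes passed, with 9 at an unadjusted p under 0.05 and 0 by limma-voom, and 1 was lower without the second Apoe-/- library. The mt- sum in fibroblasts was 334 and 310 against 249, 260 and 261 CP10K, and none of the 13 genes passed.

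In monocytes 1 of 79 members was higher and 0 lower, where 1.12% and 0.442% of all genes passed, and limma-voom called 0. Ndufa12, an accessory subunit of complex I, was at 0.509 and 0.239 against 1.02, 1.39 and 1.28 CP10K, with no overlap. Its log2 difference was 1.66 (SE 0.37, adjusted p by limma = 0.043), from 35 and 25 cells in the Apoe-/- libraries. It did not pass without the second Apoe-/- library or without any one of the 3 labelled libraries, and 3 members passed without the first Apoe-/- library. In NK/T cells 0 of 79 were higher and 0 lower, where 0.733% and 0.273% of all genes passed, with 9 at an unadjusted p under 0.05 and 0 by limma-voom. Dendritic cells had under 20 cells per library and were not tested.

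In the whole aorta, where cell makeup differed between the groups, 9 of 83 members were higher and 11 lower, while 20.5% and 20.6% of all genes tested passed in these directions. Both member shares were under the background. Fewer cells of a type and less RNA per cell cannot be told apart in such averages. The 2 largest rises were in isoforms whose shares were higher in fibroblasts than in smooth muscle cells. Ndufa4l2 was at 0.0271 and 0.0196 against 0.0634, 0.0578 and 0.0878 CP10K (log2 difference 0.70, adjusted p by limma = 0.00056). Both of its Apoe-/- values lay under 0.05 CP10K, the lowest mean level tested and the amount added before taking logs. Ndufa4l2 thus entered the test only through the labelled libraries, and the size of its difference depends on the added amount. Cox4i2 was at 0.165 and 0.133 against 0.226, 0.236 and 0.246 CP10K (0.53, adjusted p by limma = 0.00052). Fibroblasts made up 1.3% and 1.04% of cells in the Apoe-/- libraries and 2.88%, 3.30% and 3.13% in the labelled ones.

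The other higher members were Ndufa3 (0.36), Atp5k (0.31), Cox6b1 (0.29), Ndufc2, Atp5l, Ndufa6 and Uqcrb, and 6 of the 9 were also higher in smooth muscle cells. Among the lower were Atp5g3 (-0.27), Ndufs1 (-0.26), Atp5a1 (-0.25), Ndufv1 (-0.25), Ndufb10 (-0.23), Ndufb9, Ndufa11, Atp5h, Uqcrc2 and Atp5b. The mt- sum was 469 and 476 against 429, 422 and 421 CP10K, with 9 of 13 genes lower. When every library was given the same makeup of cell types, 12 members were higher and 1 (Atp5g3) was lower, Cox4i2 (0.16) did not pass and Ndufa11 had a difference of 0.03. With totals without mt- and ribosomal genes the split was 6 higher and 13 lower. Shares of all genes under the changed settings, here and with libraries left out, are not given. These counts are therefore not read as a result about the members. Without the second Apoe-/- library 24 were higher and 12 lower, without the second labelled library 4 and 6, and without the third 4 and 8. In glycolysis Eno1, Pkm and Ldha were higher and Gapdh lower among 14.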

How the data were processed

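The study made 3' single-cell libraries (Chromium v2 kit) and, per the labels, mapped reads to mm10 with Cell Ranger 3.1.0 and processed cells with Seurat 4.0.3. The deposited table holds natural log values, made by the authors as the natural log of 1 plus the UMIs per 10000 UMIs of a cell. UMIs were recovered from it, and 100% of values came out whole within 0.01. Every cell summed to 10000, no cell had under 201 genes or above 9.99% mitochondrial UMIs, and 165 barcodes occurred in 2 or more libraries. Doublets had been removed by the authors and no caller was run.

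Cells were gated by 14 lists of marker genes: a cell took the type whose score was at least 0.25 where the next was at most 0.5 of it, and 6.78% of cells lay within 0.05 of the limit. Library means of CP10K were tested with limma 3.58.1 (R 4.3.3, trend) on log2(mean + 0.05), for genes of at least 0.05 CP10K and types with at least 20 cells per library, with Benjamini-Hochberg adjustment over all genes and a threshold of 0.05. The authors' test treats cells as replicates and was not used. Contrasts between cell types used differences within a library. limma-voom on recovered UMIs called 628 genes higher and 296 lower in smooth muscle cells (552 and 250 by the main test) and 745 and 644 in macrophages (763 and 518). Clusters came from 2000 variable genes and 12 components (leidenalg 0.10.2, resolution 1). Scripts were tested on simulated data. Counting error alone limits rare genes.

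Named members were the isoforms and their partners, the 5 members changing most each way per comparison among those past the threshold without overlap, the highest of each complex, and the 5 largest level differences each way; other members past the threshold are named after their values were seen. Atp5if1 was not analysed here. Some results of the whole aorta are not reported here. Atp5o.1 carries a suffix that marks a repeated symbol. Members and lists were chosen with earlier results of these data known. Gene lengths and positions came from GENCODE M21 (GRCm38), promoters from RefSeq.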

Additional observations from a re-analysis of the deposited data

Results flagged for a closer look

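In the direct comparison of group differences (limma contrast within libraries, macrophages minus smooth muscle cells), 17 named members were lower in macrophages and 1 was higher, each past the threshold for the difference itself. Of all genes tested 6.69% were lower and 5.24% higher. Several of these members were named for their group differences in the same cells. Their number is therefore partly set by that choice. Ndufa4 stood at -0.922, and its groups moved in opposite directions in the 2 cell types. The ATP synthase members were Atp5k (-0.385), Atp5g3 (-0.379), Atp5d (-0.347), Atp5a1 (-0.336), Atp5l (-0.30), Atp5g2 (-0.261) and Atp5f1 (-0.228). In complex IV these were Cox4i1 (-0.323), Cox5a (-0.263), Cox8a (-0.209), Cox6a1 (-0.199) and Cox6c (-0.177), in complex III Uqcrb (-0.285) and Uqcrh (-0.255), and in complex I Ndufs6 (-0.349) and Ndufa13 (-0.274). The assembly factor Ndufaf7, at 0.129 CP10K in macrophages, was the one that differed the other way (0.744).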

How the results depend on the processing

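Of 280 counts, sums and ratios recomputed under an alternative, 242 stayed within the limits set for a like value. The sums and ratios with the same cluster weights, given below, are not among the 280. For isoform ratios the limit was only an unchanged sign, so a large change in size could count as a like value. Apart from limma-voom in smooth muscle cells and macrophages, the shares of all genes under the alternatives are not given. Leaving out 1 library gave 10 to 36 members past the threshold in whole aorta, 5 to 25 in smooth muscle cells, 0 to 1 in endothelial cells, 5 to 20 in macrophages, 0 to 3 in monocytes, 16 to 24 in the contrast of macrophages with smooth muscle cells and 0 to 1 in that of fibroblasts. With no filter on low values smooth muscle cells gave 5 and the macrophage contrast 15, and with a filter at 0.5 CP10K the endothelial contrast gave 1. Averaging the deposited log values gave 1 in endothelial cells and 3 in monocytes. Monocytes gave 0 with a pseudocount of 0.01, 0 by limma-voom, 0 with totals without mt- and ribosomal genes, and 2 with the replicate block. The cause was not tested. The replicate block gave 21 in smooth muscle cells and 9 lower and 1 higher in macrophages; same-numbered libraries correlated at -0.023 to 0.043, so they share only a number.

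The same makeup of cell types gave 13 in whole aorta, turned Ndufa11 there to 0.030 and moved the ratio of the summed level from 1.004 to 1.05. The same cluster weights, added after seeing the data, gave 3 in macrophages, 5 in their contrast and a summed ratio of 0.99 (0.932 otherwise); by construction these use fewer cells. Isoform ratios in smooth muscle cells turned in sign, Cox4i2 to -0.090 and Ndufa4l2 to -1.19 with those weights and Ndufa4l2 to -0.045 with cell types from clusters, while leaving out libraries spread Ndufa4l2 from -0.15 to 1.502 and Cox6b2 from -0.70 to 0.22. Of 587 alternative values for 37 named member results, 502 kept direction and call, 84 no longer passed and 1 turned. Monocytes could not be tested with the stricter gate or clusters. The 25 to 35 monocytes and 45 to 53 fibroblasts per Apoe-/- library limit the precision of values in those types.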
